A study of Mus musculus with 2 samples.

Results

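Interferon-stimulated antiviral genes were followed gene by gene in single cells of whole mouse uterus. The set had 39 named symbols, and 37 of them had a row in the files. Mx1 and Mx2 were not analysed here. The members were chosen by symbol after their low level in 1 of the libraries had been seen, so every difference below between the libraries describes that choice and is no independent test of it.

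These genes are the effector arm of the type I and type III interferon response. A cell that senses viral or misplaced nucleic acid secretes interferon beta or a related ligand; receptors on the same and neighbouring cells then act through the kinases Jak1 and Tyk2 to assemble a complex that holds Stat2 and Irf9. That complex binds a short DNA element, the interferon-stimulated response element, in front of the genes and switches them on together. In the uterus the epithelium also makes interferon epsilon, a ligand of the same receptor.

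The study compared 2 libraries of uterine cells, each a pool of 3 female C57BL/6J mice aged 6 months. The library labelled control carries Prickle1 f/f in its title, and the library labelled cKO carries Prickle1 f/f MiC. MiC is spelled out nowhere in the labels, which name no promoter for a recombinase, give no treatment and enter wild-type as the genotype of both libraries. The series title is about missing PRICKLE1, a regulator of tissue polarity, in the myometrium, the muscle wall of the uterus. All tissue was minced and held for 5 hours in a warm collagenase and DNase digest before capture, which both libraries share.

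Prickle1 itself did not follow the labels. The library labelled control had 96 Prickle1 UMIs (unique molecular identifiers, each standing for 1 captured transcript), or 2.56 CPM (a gene's share of all UMIs, in which 1 UMI per 10000 is 100 CPM), while that labelled cKO had 265, or 9.03 CPM. The ratio of cKO over control was 3.53 (95% interval 2.78 to 4.51) over all cells and 1.66 (0.904 to 3.24) in smooth muscle-like cells, where 14 and 51 UMIs were counted. It was 2.02 (1.43 to 2.93) in fibroblast-like cells, 3.65 (1.52 to 10.6) in T or NK cell-like cells and 4.13 (1.19 to 11.7) in epithelium-like cells. The last rests on 17 and 5 UMIs. Macrophage or monocyte-like cells had 0 and 1 UMIs, dendritic cell-like cells 1 and 4 and a further cluster, cluster 11, 1 and 3. A 3-prime tag may lie outside a deleted part of the gene, so this value does not check the deletion. Whether the labels were exchanged was not tested; an exchange would turn the direction of every difference below, and the groups are called by their labels throughout.

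The library labelled control held 45035801 UMIs and 3490 cells at a median of 4953 UMIs, and the library labelled cKO held 34261441 UMIs and 3586 cells at a median of 4903. The libraries shared 6 cell barcodes. Epithelium-like cells were 37.8% of cells under the label control but 3.07% under the label cKO, so values over all cells mix cell types in different proportions. Empty droplets, barcodes with under 100 UMIs that hold free RNA, carried 31.8 member UMIs per 10000 in the library labelled control against 6.01 in the library labelled cKO. With 1 library per group no value has a replicate error and no test was possible; all intervals are 95% and cover counting error only. Differences between mice, preparations and genotype cannot be told apart here.

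The sequence in front of the members is shown first, because the choice of members by symbol did not use it. RefSeq promoter windows of build GRCm38.p6 were present for 30 of the 37 members. The core of the response element, taken as GAAA, then any 2 bases, then GAAA on either strand, was searched in the 250 bases before each start. It was found for 14 of 30 members (46.7%) and for 936 of all 27025 genes in the table (3.46%). Among genes biased to interferon gamma it was found for 8 of 12 (66.7%), so it is not particular to the members. A match is a description of the letters and not a measured binding site. The core of the interferon gamma element, TTC, any 3 bases and GAA, was found for 5 of 30 members (16.7%) against 8.13% of all genes.

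Windows of 140 bases are printed for members that the results turn on, 5′ to 3′ along the gene's own strand in lower case, with each match in capitals. Ifit1 and Ifit3 are neighbours with very large differences, Isg15 has overlapping matches, and Rsad2 has a single one. Ifi44 was lower in every group compared and has no match. Bst2 has overlapping matches and was lower in 4 groups, with a median log2 ratio of -1.13. They lie at chr19:34640719-34640858 (Ifit1, plus strand), chr19:34583359-34583498 (Ifit3, plus), chr4:156200849-156200988 (Isg15, minus), chr12:26456483-26456622 (Rsad2, minus), chr3:151749961-151750100 (Ifi44, minus) and chr8:71537503-71537642 (Bst2, minus). Each ends 31 bases before the annotated start, except that of Ifi44, which ends 51 bases before it.
Ifit1: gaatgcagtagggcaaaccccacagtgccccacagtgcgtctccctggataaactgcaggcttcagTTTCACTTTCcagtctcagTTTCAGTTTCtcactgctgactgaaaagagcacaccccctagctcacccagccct
Ifit3: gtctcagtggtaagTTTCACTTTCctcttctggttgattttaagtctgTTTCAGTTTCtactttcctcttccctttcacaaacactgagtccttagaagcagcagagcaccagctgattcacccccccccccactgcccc
Isg15: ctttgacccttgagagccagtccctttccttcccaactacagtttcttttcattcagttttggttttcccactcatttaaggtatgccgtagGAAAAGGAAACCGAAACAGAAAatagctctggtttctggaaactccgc
Rsad2: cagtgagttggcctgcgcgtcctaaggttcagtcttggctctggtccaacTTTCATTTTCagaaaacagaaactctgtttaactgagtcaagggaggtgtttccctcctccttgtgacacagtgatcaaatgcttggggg
Ifi44: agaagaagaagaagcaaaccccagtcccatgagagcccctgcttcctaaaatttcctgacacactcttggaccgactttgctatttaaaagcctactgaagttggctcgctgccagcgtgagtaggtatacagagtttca
Bst2: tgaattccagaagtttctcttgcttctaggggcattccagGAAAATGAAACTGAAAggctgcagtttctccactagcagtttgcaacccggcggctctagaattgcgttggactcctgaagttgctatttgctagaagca

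In Ifit1 the matches began 104 and 85 bases before the start, in Ifit3 156 and 122, in Rsad2 120, in Isg15 78, 72 and 66, and in Bst2 130 and 124. The number of matches did not order the members strictly by their difference between the libraries. Members with no match (16 genes) had a middle log2 ratio of cKO over control of -1.42, those with 1 match (6 genes) of -1.71, and those with 2 or more (8 genes) of -1.87, where each gene's value is its median over the 7 cell groups described next. The ranges overlapped widely, from -2.74 to -0.58 without a match and from -3.97 to -0.12 with 2 or more.

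Several members stand side by side in the genome (GENCODE vM21, the same build). Ifit2, Ifit3, Ifit3b and Ifit1 lie within chr19:34550694-34650009, Oas2, Oas3, Oas1g and Oas1a within chr5:120730333-120907521, and Oasl2 and Oasl1 within chr5:114896936-114937915. Rsad2 and Cmpk2 lie within chr12:26442746-26479837, and Slfn5 and Slfn8 within chr11:82951349-83020810. Near-identical copies can share reads: in the last 500 bases of its transcripts, Oas1a shared 46.6% of its 31-base words with other genes, Phf11d 32.5%, Slfn8 26.9% and Trim30a 22.1%. Values of these genes, and of Oas1g, the copy that Oas1a shares most with, are uncertain for that reason.

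Cells were grouped by marker genes into 6 named classes with at least 100 cells in each library, and 1 unnamed cluster of that size was kept as cluster 11. The classes were epithelium-like (1319 cells in the library labelled control against 110 in the library labelled cKO), fibroblast-like (846 and 1339), smooth muscle-like (306 and 679), macrophage or monocyte-like (323 and 232), dendritic cell-like (149 and 207) and T or NK cell-like (206 and 437). Cluster 11 (139 and 304) had too few of the listed markers for a name. It was led by Irf8, AW112010, Txk, Klre1, Il2rb, Gzma, Cd7, Eomes, Klra4 and Xcl1. The T or NK cell-like class was led by Trdc, Cd163l1 and Tcrg-C1 in cluster 8 and by Gata3, Cd6 and Cd28 in cluster 18. The dendritic cell-like class was led by Ccl22 and Ccr7. A gene was counted as lower where its log2 ratio of cKO over control, after adding 5 CPM to each level, was -1 or below; the pseudocount understates differences of scarce genes. Values in pairs give the library labelled control before that labelled cKO, and a ratio or fold of levels is control over cKO unless it is on the log2 scale.

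Summed over the 37 genes, the member level of the library labelled cKO lay below that of the other library in all 7 groups, and the size of the difference ranged widely. Dendritic cell-like cells had 116 member UMIs per 10000 (115 to 118) in the library labelled control against 11.9 (11.4 to 12.4) in the library labelled cKO, 9.75-fold (9.33 to 10.2) apart. Epithelium-like cells had 46.5 (46.2 to 46.8) and 6.89 (6.45 to 7.34), 6.75-fold apart. Cluster 6 of that class held 235 and 0 cells and cluster 7 held 113 and 3. Of the 87978 member UMIs of the class in the library labelled control, 56283 lay in cluster 6, at 52.8 per 10000. Ratios of single genes in epithelium-like cells below include cluster 6, for which the library labelled cKO has no cell to compare. Within cluster 0 (613 and 62 cells) the levels were 45.7 and 4.77, and within cluster 5 (358 and 45 cells) 35.4 and 7.50. Fibroblast-like cells had 10.99 (10.8 to 11.2) and 2.54 (2.46 to 2.62), 4.33-fold apart. The other immune groups were closer. Macrophage or monocyte-like cells had 145 (144 to 147) and 45.1 (44.1 to 46.0), 3.23-fold apart, T or NK cell-like cells 25.8 and 7.36, 3.50-fold apart, and cluster 11 35.3 and 9.10, 3.87-fold apart. Smooth muscle-like cells, the cell type of the myometrium, had the lowest member level in the library labelled control, and the smallest difference: 3.91 (3.52 to 4.33) and 2.54 (2.33 to 2.76), 1.54-fold (1.34 to 1.76).

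**Figure D1:**
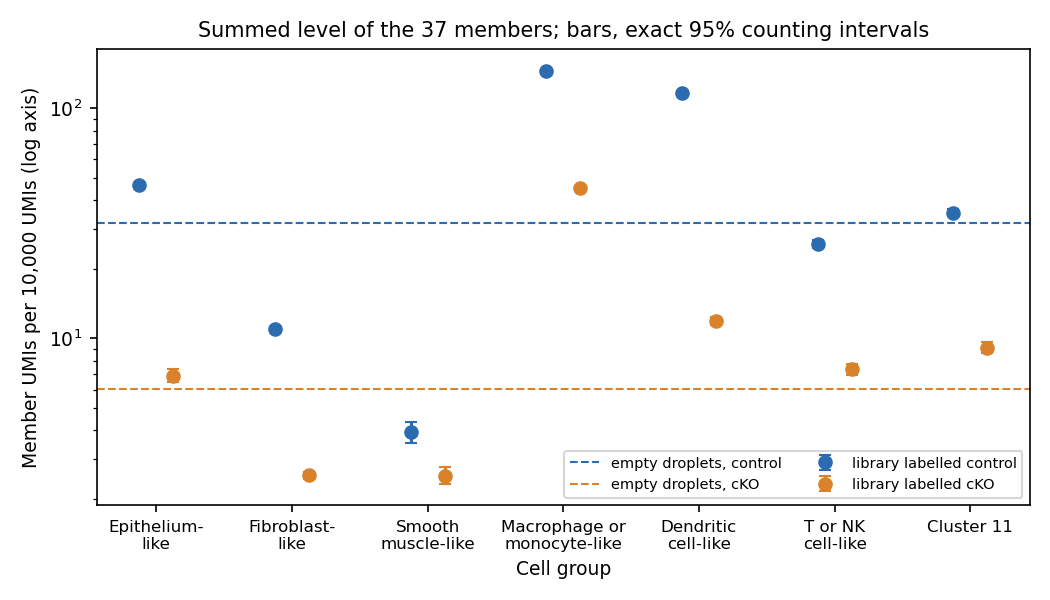
Member UMIs per 10000 UMIs (log axis) in each cell group, 1 point per library with its exact Poisson 95% interval, and dashed lines at the level in empty droplets. The library labelled control is above the library labelled cKO in all groups, most widely in dendritic cell-like cells (116 and 11.9) and least in smooth muscle-like cells (3.91 and 2.54).

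The order of the groups also differed between the libraries. In the library labelled control, 20 of the 37 genes had their highest CPM in dendritic cell-like cells, 12 in macrophage or monocyte-like cells, 4 in epithelium-like cells and 1 in cluster 11. In the library labelled cKO, 29 had it in macrophage or monocyte-like cells, 4 in dendritic cell-like cells, 3 in cluster 11 and 1 in epithelium-like cells. The levels of fibroblast-like, smooth muscle-like and T or NK cell-like cells in the library labelled control were below the 31.8 per 10000 of its empty droplets, and those of fibroblast-like and smooth muscle-like cells in the library labelled cKO below the 6.01 of its own, so part of their member UMIs can be free RNA, and how large a part was not tested beyond the subtraction that follows. A subtraction of free RNA, at a share estimated from marker genes of other classes, left 10.5 and 2.45 per 10000 in fibroblast-like cells and 3.55 and 2.43 in smooth muscle-like cells.

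Counted gene by gene, 36 of 37 members were lower over all cells, where 7.4% of all genes at a mean of 10 CPM or more were. The count was 35 in epithelium-like cells (7.31% of all genes), 35 in dendritic cell-like cells (3.46%), 33 in cluster 11 (2.7%), 28 in T or NK cell-like cells (3.49%), 27 in macrophage or monocyte-like cells (2.04%), 25 in fibroblast-like cells (0.704%) and 4 in smooth muscle-like cells (1.55%). Among members at 10 CPM or more, the base of those shares, the counts were 34 of 35 over all cells, 33 of 35 in epithelium-like, 35 of 36 in dendritic cell-like, 28 of 29 in cluster 11, 25 of 30 in T or NK cell-like, 27 of 36 in macrophage or monocyte-like, 15 of 18 in fibroblast-like and 2 of 7 in smooth muscle-like cells. The rule used this contrast, so nothing is read from these shares. No member was higher by a log2 ratio of 1 or more in any group, while of all genes 5.38% were over all cells, 12.1% in epithelium-like, 1.47% in fibroblast-like, 3.03% in smooth muscle-like, 1.09% in macrophage or monocyte-like, 3.64% in dendritic cell-like and 1.61% in T or NK cell-like cells and 2.6% in cluster 11. Of the 37 genes, 35 reached a mean of 10 CPM in epithelium-like cells, 36 in macrophage or monocyte-like and in dendritic cell-like cells, 30 in T or NK cell-like cells, 29 in cluster 11, 18 in fibroblast-like cells and 7 in smooth muscle-like cells. Below that level the added 5 CPM limits how large a ratio can be.

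Over the 7 groups, 4 genes (Ifit1, Isg15, Ifi44 and Ifi27l2a) were lower in all 7, 14 in 6 groups, 9 in 5, 5 in 4, Oas2 and Ifi35 in 3, Oas1a in 2, and Irf9 and Oas1g in 1. Ifit1 had the largest median difference, -3.97 on the log2 scale, and Oas1g and Irf9 the smallest, at -0.12 and -0.58. The median ratio of all genes at a mean of 10 CPM or more was slightly above 0 in each group, between 0.09 and 0.23.

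**Figure D2:**
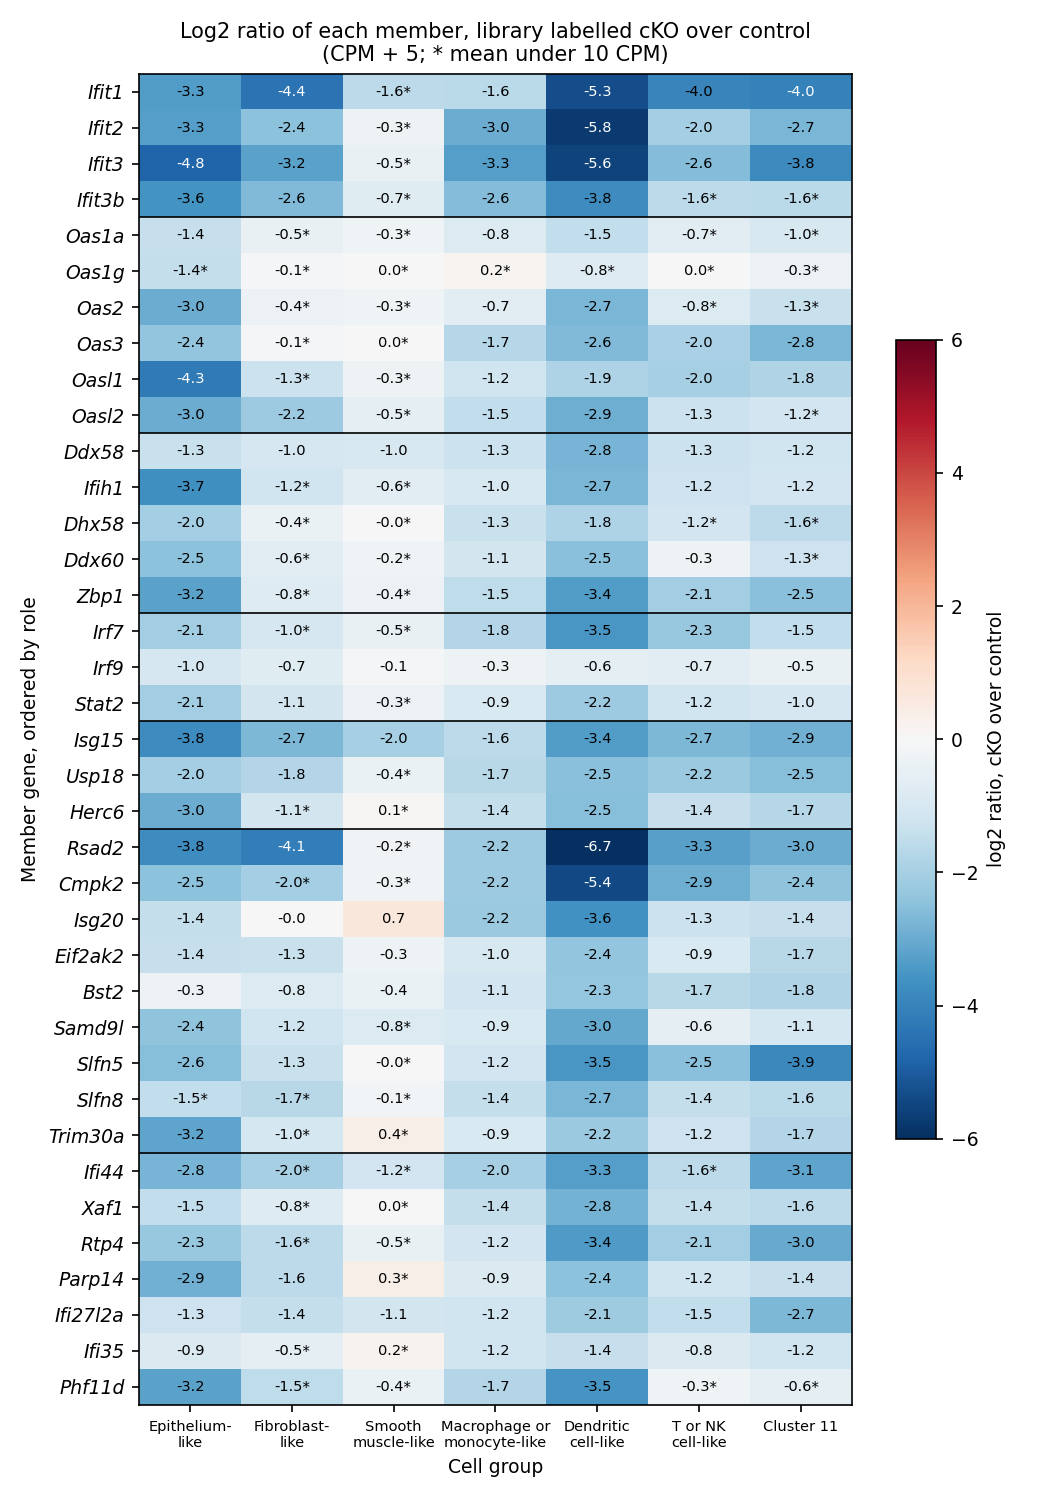
Heat map (colour, and numbers in the squares) of the log2 ratio of cKO over control (5 CPM added) for the 37 members in 7 cell groups, ordered by role; an asterisk marks a mean under 10 CPM. Ifit1 is lower in all 7 groups (-5.30 to -1.59), Irf9 lies between -1.01 and -0.10, and the smooth muscle-like column is the palest.

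The IFIT genes encode proteins that bind foreign RNA ends and block its translation. All 4 were lower in every group other than smooth muscle-like cells, where 1 of 4 was, and their median log2 ratio was -5.43 in dendritic cell-like cells, -3.46 in epithelium-like cells, -2.93 in fibroblast-like cells and -2.78 in macrophage or monocyte-like cells. Ifit3 had 3280 UMIs in epithelium-like cells of the library labelled control (173 CPM, 167 to 179) and 2 in those of the library labelled cKO (1.48 CPM, 0.179 to 5.36), a ratio of 117 (32.3 to 966). Ifit2 had 851 UMIs and none in the same cells; against the 3 counts that a count of 0 allows, it was at least 20.2-fold lower. In macrophage or monocyte-like cells the family was split: Ifit1 had 1367 and 444 CPM, a ratio of 3.08 (2.85 to 3.32), while Ifit2 had 494 and 59.4 CPM, Ifit3 306 and 26.7 CPM and Ifit3b 145 and 19.6 CPM, with ratios of 8.33, 11.5 and 7.38. As a share of all member UMIs, the family went from 19.1% to 0.811% in fibroblast-like cells and from 16.7% to 2.55% in dendritic cell-like cells, and from 15.9% to 12.2% in macrophage or monocyte-like cells. In the last class Ifit1 alone was 9.40% and 9.86% of member UMIs, while Ifit2 was 3.40% and 1.32%, Ifit3 2.10% and 0.592% and Ifit3b 0.995% and 0.435%.

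The OAS genes encode enzymes that answer double-stranded RNA by making a messenger that activates RNA decay, and Oasl1 and Oasl2 are relatives. All 6 were lower in epithelium-like cells, 5 in dendritic cell-like cells, 4 in cluster 11, 3 each in macrophage or monocyte-like and T or NK cell-like cells, 2 in fibroblast-like cells and none in smooth muscle-like cells. In epithelium-like cells Oasl1 had 289 CPM (282 to 297) against 10.4 CPM (5.67 to 17.4), a ratio of 27.9 (16.6 to 51.0), and Oas2 had 93.1 and 7.41 CPM, a ratio of 12.6 (6.82 to 26.3). Macrophage or monocyte-like cells kept more of both: Oasl1 had 891 and 387 CPM, 2.30-fold (2.12 to 2.51) apart, and Oas2 58.0 and 33.8 CPM, 1.72-fold (1.28 to 2.34) apart. Oas1g had 4 UMIs in each library in macrophage or monocyte-like cells, where its log2 ratio was 0.17, the only one above 0 in that class.

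The sensors Ddx58 (RIG-I), Ifih1 (MDA5), Dhx58 and Ddx60 recognise viral RNA, and Zbp1 recognises unusual nucleic acid helices. All 5 were lower in epithelium-like cells, in dendritic cell-like cells and in cluster 11, 4 in macrophage or monocyte-like and in T or NK cell-like cells, 2 in fibroblast-like cells and none in smooth muscle-like cells. In epithelium-like cells Ifih1 had 144 CPM (138 to 149) and 6.67 CPM (3.05 to 12.7), while Ddx58 had 88.5 CPM (84.4 to 92.9) and 31.9 CPM (23.1 to 42.9). Their ratios were 21.5 (11.3 to 47.2) and 2.78 (2.05 to 3.85), on 9 and 43 UMIs in the library labelled cKO. Whether these ratios differ by more than counting error was not tested. In T or NK cell-like cells Ddx60 had 24.5 and 19.1 CPM, a ratio of 1.29 (0.730 to 2.24) whose interval holds 1, the smallest difference among the members at 10 CPM or more there.

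The transcription factors of the response differed from one another. Irf7, which is induced by interferon and drives more interferon, had 216 CPM and 14.7 CPM in dendritic cell-like cells, a ratio of 14.7 (10.0 to 22.5), and 144 and 38.7 CPM in macrophage or monocyte-like cells, 3.71-fold (2.88 to 4.85) apart. Irf9, a DNA-binding part of the complex on the response element, differed less, with 64.6 and 29.6 CPM in epithelium-like cells, 113 and 73.8 CPM in dendritic cell-like cells, 83.8 and 65.9 CPM in macrophage or monocyte-like cells, and 31.5 and 29.2 CPM in smooth muscle-like cells. Its ratio was largest in epithelium-like cells, 2.18 (1.59 to 3.06), and in smooth muscle-like cells it was 1.08 (0.674 to 1.70). Stat2, its partner in the complex, stood between them, with 176 and 35.6 CPM in dendritic cell-like cells, a ratio of 4.95 (3.79 to 6.55).

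Isg15 encodes a ubiquitin-like protein that is attached to other proteins, Herc6 is the mouse ligase for it, and Usp18 removes it and also restrains the interferon receptor. All 3 were lower in every group other than smooth muscle-like cells, where only Isg15 was. Isg15 took the most member UMIs of any gene in epithelium-like cells of the library labelled control: 12888 UMIs, 681 CPM (669 to 693), against 62 UMIs, 46.0 CPM (35.2 to 58.9), a ratio of 14.8 (11.6 to 19.3). It was detected in 59.0% of those cells in the library labelled control against 9.09% in the library labelled cKO; with every cell thinned to 1000 UMIs, the shares were 30.9% and 1.82%. In dendritic cell-like cells it had 1364 and 129 CPM, and in smooth muscle-like cells 20 and 3 UMIs, a ratio of 14.7 (4.35 to 77.0). There is no class that is known to lack these genes; after thinning, Isg15 was found in 2.29% and 0.295% of smooth muscle-like cells, the class with the lowest member level.

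Among the other effectors, Rsad2 (viperin) makes a chain-terminating nucleotide and Cmpk2, its genomic neighbour, supplies the precursor. In macrophage or monocyte-like cells Rsad2 alone was 33.5% of all member UMIs in the library labelled control against 24.1% in the library labelled cKO, at 4868 CPM (4787 to 4949) and 1085 CPM. In dendritic cell-like cells it had 2295 UMIs (1409 CPM) and 17 UMIs (8.90 CPM), a ratio of 158 (98.7 to 272), the most negative log2 ratio of any member in any group (-6.67). Both libraries therefore held abundant Rsad2 in macrophage or monocyte-like cells, while in dendritic cell-like cells the library labelled cKO held almost none. In fibroblast-like cells it had 121 CPM and 2.19 CPM, a ratio of 55.5 (39.7 to 80.1). Cmpk2 had 992 and 217 CPM in macrophage or monocyte-like cells and 233 and 0.523 CPM in dendritic cell-like cells, the last from 1 UMI, a ratio of 445 (79.3 to 17606).

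Bst2 (tetherin), which holds budding virus particles at the cell surface, differed little outside the immune cells. It had 182 CPM (176 to 188) and 144 CPM (124 to 166) in epithelium-like cells, 160 and 88.4 CPM in fibroblast-like cells and 149 and 111 CPM in smooth muscle-like cells, with ratios of 1.27 (1.10 to 1.47), 1.81 (1.68 to 1.94) and 1.34 (1.08 to 1.66). In dendritic cell-like cells it had 254 and 46.1 CPM, a ratio of 5.51 (4.36 to 7.01). Of all member UMIs, Bst2 was 14.5% and 34.8% in fibroblast-like cells and 38.2% and 43.9% in smooth muscle-like cells.

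Isg20, an RNA exonuclease, differed between the libraries by unlike amounts in the groups. It had 155 and 54.8 CPM in epithelium-like cells, 46.8 and 5.99 CPM in macrophage or monocyte-like cells, and 120 and 5.23 CPM in dendritic cell-like cells, all lower in the library labelled cKO. In fibroblast-like cells its values were nearly equal, 12.3 CPM (10.1 to 14.7) and 12.2 CPM (10.5 to 14.0). In smooth muscle-like cells it had 9 UMIs (9.45 CPM) and 38 UMIs (18.2 CPM), a control over cKO ratio of 0.520 (0.221 to 1.10) whose interval holds 1.

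Slfn5, Slfn8, Samd9l and Trim30a, further restriction or regulatory factors, differed by cell group. Slfn5 had 1029 and 86.4 CPM in dendritic cell-like cells, a ratio of 11.9 (10.1 to 14.1), and 491 and 216 CPM in macrophage or monocyte-like cells, a ratio of 2.28 (2.04 to 2.55). Its most negative log2 ratio, -3.89, was in cluster 11, on 70 and 2 UMIs, and epithelium-like cells had 715 and 3 UMIs of it. Samd9l had 266 and 45.2 CPM in epithelium-like cells but 125 and 82.2 CPM in T or NK cell-like cells and 259 and 122 CPM in cluster 11. Trim30a took the most member UMIs in cluster 11, with 465 CPM (418 to 515) against 136 CPM (118 to 157), a ratio of 3.42 (2.86 to 4.09). The antiviral kinase gene Eif2ak2 (PKR) had 72.2 and 24.5 CPM in epithelium-like cells and 127 and 62.6 CPM in macrophage or monocyte-like cells.

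The remaining induced genes have less defined roles, with Ifi44 and Ifi27l2a lower in all 7 groups. Ifi44 had 91.2 and 8.89 CPM in epithelium-like cells, 97.0 and 5.23 CPM in dendritic cell-like cells and 176 and 15.4 CPM in cluster 11. Ifi27l2a had 84.9 CPM (79.1 to 91.0) against 28.9 CPM (26.3 to 31.6) in fibroblast-like cells, a ratio of 2.94 (2.62 to 3.30), and 511 and 220 CPM in macrophage or monocyte-like cells. Parp14 had 192 and 79.8 CPM in T or NK cell-like cells and 342 and 128 CPM in cluster 11. Ifi35 had the smallest median difference of these genes, with 44.3 and 22.2 CPM in epithelium-like cells. Xaf1, Rtp4 and Phf11d were lower in 5, 6 and 4 of the 7 groups.

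Smooth muscle-like cells were described on few UMIs, 372 and 531 over all members, at a median of 1892.5 and 2010 UMIs per cell. Isg15, Ifit1, Ifi44 and Ifi27l2a were the 4 lower genes, and Ifi44 rested on 8 and 2 UMIs. Besides Isg20, the members with a log2 ratio above 0 were Herc6 (5 and 12 UMIs), Trim30a (0 and 3), Xaf1 (5 and 11), Parp14 (7 and 22) and Ifi35 (6 and 17). The interval of each of these 5 ratios holds 1. The count of 4 moved between 2 and 16 with the pseudocount, from 10 CPM to 1 CPM.

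Per cell, the difference did not have the same shape in every class. In epithelium-like cells nearly the whole distribution was lower: the 10th, 50th and 90th percentiles of member UMIs per 10000 in a cell were 5.36, 25.6 and 147 in the library labelled control against 0, 3.00 and 10.7 in the library labelled cKO. After thinning to 1000 UMIs, the median epithelium-like cell had 2 different members in the library labelled control against none in the library labelled cKO, and 28.1% (25.7 to 30.6) against 0.909% of cells (1 of 110) had at least 5. Cells at 100 or more member UMIs per 10000 numbered 214 of 1319 cells (16.2%) and 0 of 110, which allows a share of up to 2.73%. Member UMIs were also concentrated in this class. The 10% of cells with the most of them, a ranking that depth also enters, held 64.6% and 76.5%. In the library labelled cKO, the 6 cells with the highest level held 451 of 929 member UMIs.

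Macrophage or monocyte-like cells formed a long tail in both libraries, at median depths of 7733 and 5870 UMIs per cell. Their median was 31.4 per 10000 in the library labelled control against 11.6 in the library labelled cKO, while the 90th percentiles were 536 and 90.7. Cells at 100 or more were 105 of 323 (32.5%, 27.4 to 37.9) and 23 of 232 (9.91%). The 10% of cells with the most member UMIs, a ranking that depth also enters, held 61.7% and 72.0% of the member UMIs of the class. Within the library labelled control, the 105 high cells and the 218 others had median depths of 8136 and 7661.5 UMIs. The 9 listed macrophage or monocyte markers did not share a direction between these cells. Fcgr1, an immunoglobulin receptor, had 493 CPM in the high cells and 93.7 CPM in the others, and C1qa, a complement gene, 1150 and 883 CPM. Csf1r, a growth factor receptor, had 286 and 395 CPM, Cd68 398 and 447 CPM and Mrc1 505 and 635 CPM. Ly6c2, a marker of monocytes, had 77.5 and 14.1 CPM but was seen in 9.52% of the high cells. Of the epithelial markers, Krt8 had 53.1 and 36.4 CPM and Cldn4 29.7 and 4.16 CPM. The 23 high cells of the library labelled cKO had 287 CPM of Fcgr1, and Ly6c2 had no UMI in them.

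Dendritic cell-like cells had a similar tail in the library labelled control but little of one in the library labelled cKO. Their 50th and 90th percentiles were 25.8 and 382 per 10000 in the former and 6.07 and 34.4 in the latter, and cells at 100 or more were 55 of 149 (36.9%) and 2 of 207 (0.966%). At least 5 members after thinning were found in 40.9% (33.0 to 49.3) and 3.86% of cells. In the library labelled control, Ccr7, a receptor of migrating dendritic cells, had 4470 CPM in the high cells and 3030 CPM in the others, and Xcr1, a marker of another dendritic cell type, 26.4 and 149 CPM. The other dendritic cell markers did not follow one direction: Clec9a, of the same type as Xcr1, had 12.3 and 4.71 CPM from 7 and 5 UMIs, Cd209a 29.95 and 33.9 CPM and Zbtb46 95.1 and 84.8 CPM. Of the epithelial markers, Krt8 had 137 and 402 CPM and Cldn4 75.8 and 161 CPM, and their part in the split was not tested.

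Few fibroblast-like cells held most of the member UMIs of the library labelled control. The median cell had 2.91 member UMIs per 10000 in the library labelled control against 1.46 in the library labelled cKO, and no member was seen after thinning in 65.6% and 78.7% of cells. In the library labelled control, the 43 cells with the highest level (5%) held 64.6% of all member UMIs of the class, at 124 per 10000 against 4.13 in the other 803. The highest 67 cells of the library labelled cKO held 20.9%, at 13.9 against 2.09. With the highest 5% left out of both libraries, the count of lower members was 2 in place of 25 and the fold of the summed level 1.97 in place of 4.33; the cells left out were picked by the level compared, so this restates those shares. As a mean of ratios within clusters, the count was 12. The 43 cells carried fibroblast markers at 104 per 10000 against 130 in the others, epithelial markers at 0.645 against 0.289 and macrophage markers at 0.516 against 0.209. Of the 43, 18 lay in cluster 4, the largest fibroblast-like cluster, and 11 in cluster 22, a cluster of 15 control-labelled and 221 cKO-labelled cells. The median cell of cluster 22 had 108 per 10000 in the former and 2.09 in the latter. Cluster 9, led by Pi16, showed the smallest difference among the fibroblast-like clusters with at least 20 cells in each library, 3.52 and 2.38 per 10000, 1.48-fold (1.34 to 1.64) apart.

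**Figure D3:**
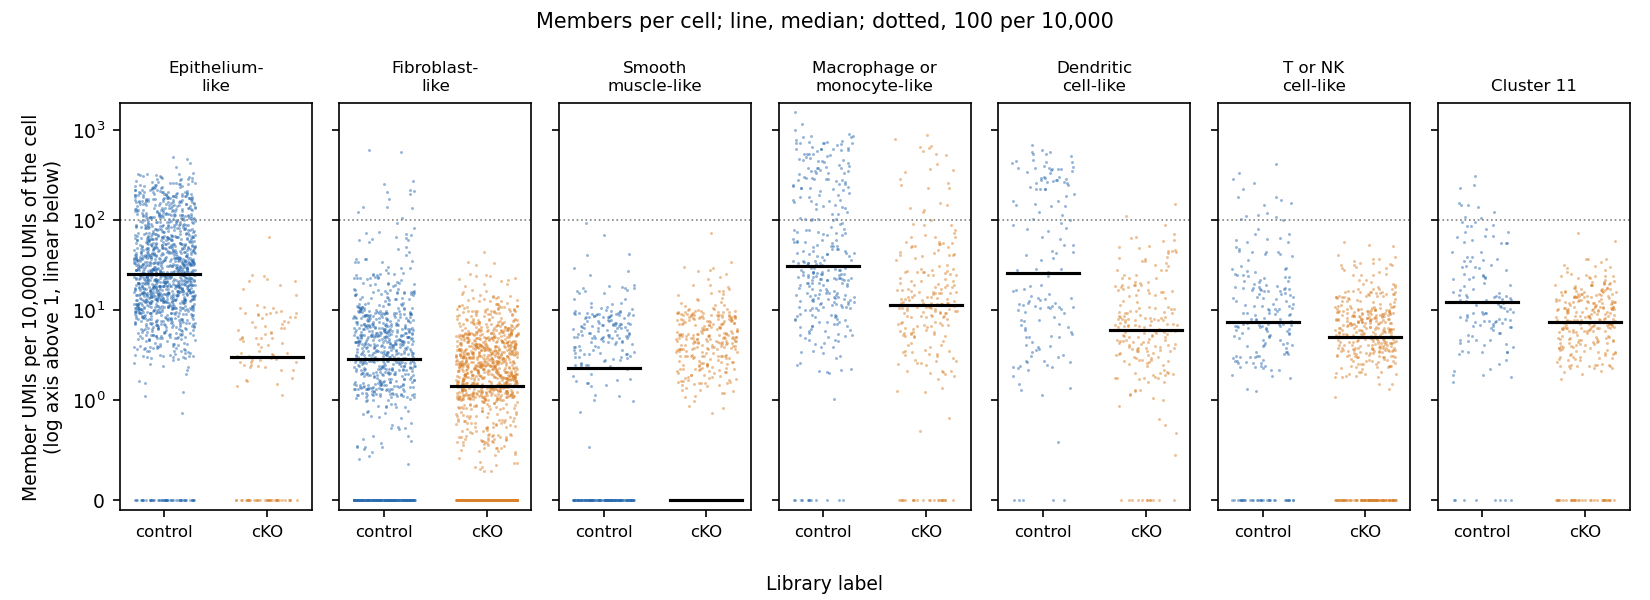
Member UMIs per 10000 UMIs in single cells (vertical axis, log above 1 and linear below) by cell group and library label; each point is a cell, the line the median and the dotted line 100 per 10000. In epithelium-like cells the medians are 25.6 and 3.00, while in fibroblast-like cells they are 2.91 and 1.46 and the high values of the library labelled control come from a small share of cells.

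The medians of T or NK cell-like cells were closer, 7.50 and 5.10 per 10000, than the 90th percentiles, 61.1 and 15.6. Cluster 11 had medians of 12.4 and 7.43 and 90th percentiles of 86.8 and 19.2. In both groups no cell of the library labelled cKO reached 100 per 10000, which allows up to 0.6865% and 0.987% of cells, against 15 of 206 and 10 of 139 in the library labelled control.

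High members were seen together in the same cells. At 1000 UMIs per cell, Rsad2 was found in 93 of 104 macrophage or monocyte-like cells with Ifit1 in the library labelled control (89.4%) and in 23 of 219 without it (10.5%). At this depth a transcript that is present can be missed. The same shares were 18 of 27 (66.7%) and 14 of 205 (6.83%) in the library labelled cKO. Dendritic cell-like cells of the library labelled control had Rsad2 in 48 of 53 cells with Ifit1 and 7 of 96 without it. In epithelium-like cells of that library the shares were 123 of 232 (53.0%) and 102 of 1087 (9.38%).

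The ligands were then counted, since they act ahead of the members. Interferon beta (Ifnb1) had 1083 UMIs in 96 cells of the library labelled control but 2 UMIs in 1 cell of the library labelled cKO. Over all cells the ratio of levels was 424 (117 to 3502), which also carries the difference in numbers of epithelium-like cells, 1319 and 110. Its interval takes UMIs as independent, although 5 cells held 446 of the 1083. Epithelium-like cells held 993 of the UMIs, in 91 of 1319 cells (6.90%), and none of the 110 epithelium-like cells of the library labelled cKO had 1, which allows up to 2.73% of cells with a UMI and sets no limit on cells that express the gene. The 3 counts that a count of 0 allows set no bound on the fold in epithelium-like cells, because the UMIs were bunched in few cells. Cluster 6, with 622 of them, also had no cell of the library labelled cKO. Macrophage or monocyte-like cells held 86 UMIs in 3 cells, 79 of them in a single cell. No Ifnb1 UMI was found in 846 fibroblast-like or 306 smooth muscle-like cells of the library labelled control, which allows up to 0.355% and 0.980% of cells with a UMI, although its empty droplets held 52.

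Ifnb1 was found in each of the epithelium-like clusters of the library labelled control. Cluster 6 held 622 UMIs in 36 of 235 cells (15.3%), cluster 5 278 in 37 of 358 (10.3%), cluster 0 81 in 15 of 613 (2.45%) and cluster 7 12 in 3 of 113 (2.65%). Depth differed between them, and relative to their samples the cells of cluster 6 were 7.34 times and those of cluster 5 1.05 times as deep. As a level Ifnb1 was 58.4 CPM in cluster 6 and 56.3 in cluster 5, 29.9 in cluster 0 and 19.2 in cluster 7. Cluster 6, led by Ankrd37, Efhd1 and Cited1, had no cell of the library labelled cKO, so a cell population and a library cannot be told apart there. The 5 cells with the most Ifnb1 held 446 of the 1083 UMIs (41.2%). Among the other ligands, interferon epsilon (Ifne) had 109 and 4 UMIs in epithelium-like cells, or 5.76 and 2.96 CPM. The type III ligands Ifnl3 and Ifnl2 had 66 and 32 UMIs in those cells of the library labelled control and none in the 110 of the other, but 52 and 26 of them lay in cluster 6, which had no cell there to compare. Interferon gamma (Ifng) had 27 and 43 UMIs in all and lay mainly in cluster 11, at 18.0 and 22.4 CPM.

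Within the epithelium-like cells of the library labelled control, cells with Ifnb1 had more member UMIs than cells without it. The 40 cells with 5 or more Ifnb1 UMIs had a median of 173 member UMIs per 10000 (quartiles 108 and 254), the 51 cells with 1 to 4 had 139 (80.6 and 180), and the 1228 cells without any had 23.1 (11.2 and 51.8). The groups also differed in depth, with medians of 20132.5, 11569 and 4202 UMIs. With every cell thinned to 1000 UMIs, the median numbers of members were 8, 7 and 2. The cells without Ifnb1 in the library labelled control were still above the 110 cells of the library labelled cKO, which had a median of 3.00 per 10000. The part that depth plays in this split was not tested beyond the thinning, and cells of 1 library are not replicates.

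**Figure D4:**
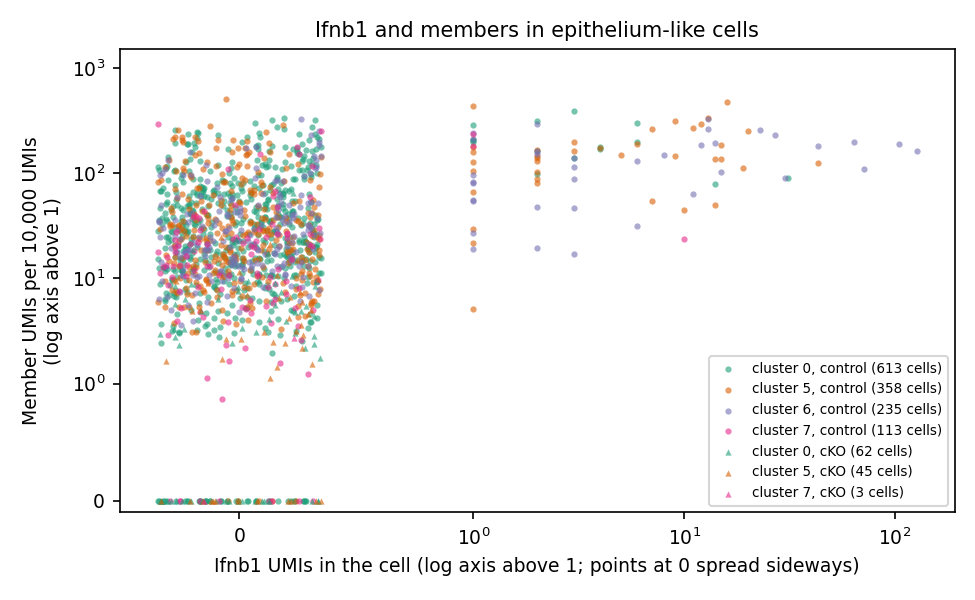
Member UMIs per 10000 UMIs of each epithelium-like cell (vertical, log above 1) against the cell's Ifnb1 UMIs (horizontal, log above 1), coloured by cluster; circles are cells of the library labelled control and triangles cells of the library labelled cKO, and cells at 0 are spread sideways. Medians are 173, 139 and 23.1 in cells of the library labelled control with 5 or more, 1 to 4 and no Ifnb1 UMIs, and 3.00 in the library labelled cKO, where no cell had Ifnb1.

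Receptor genes and the kinase gene Jak1, which act ahead of the members, were looked at next. Other kinase and adaptor genes are not given here. No receptor gene at 10 CPM or more was lower in fibroblast-like, smooth muscle-like, macrophage or monocyte-like, dendritic cell-like or T or NK cell-like cells or in cluster 11. In epithelium-like cells 1 of 5 was (7.31% of all genes were), Ifngr1, a receptor for interferon gamma, with 119 and 27.4 CPM (log2 ratio -1.94). Ifnar1, a chain of the type I receptor, had 27.6 and 23.0 CPM in epithelium-like cells and 92.1 and 95.8 CPM in dendritic cell-like cells. The kinase gene Jak1 had 100 and 84.5 CPM in epithelium-like cells. Of 18 genes that respond to tissue digestion, 2 were lower in epithelium-like cells (7.31% of all genes) and 1 in smooth muscle-like cells (1.55%). None was lower in fibroblast-like (0.704%), macrophage or monocyte-like (2.04%) and dendritic cell-like cells (3.46%). Their counts in T or NK cell-like cells and cluster 11, and those that were higher, are not given here. Of 12 housekeeping genes none was lower in any group.

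Of 53 other genes known to be induced by type I interferon, those at 10 CPM or more were counted, with the share of all genes in brackets. Lower were 28 of 41 in epithelium-like cells (7.31%), 35 of 48 in dendritic cell-like cells (3.46%) and 22 of 46 in macrophage or monocyte-like cells (2.04%). Cluster 11 had 20 of 40 lower (2.7%), fibroblast-like cells 6 of 25 (0.704%) and smooth muscle-like cells 3 of 16 (1.55%). T or NK cell-like cells had 11 of 42 lower (3.49%). A response element core lay before 15 of the 44 with a promoter window (34.1%). The membrane proteins Ifitm1 and Ifitm3, which block virus entry, went the other way in epithelium-like cells: Ifitm1 had 142 and 391 CPM (log2 ratio 1.43), and Ifitm3 637 and 1210 CPM (0.92). Ifitm1 was the only gene of that list higher there by 1 or more, where 12.1% of all genes were. In dendritic cell-like cells Ifitm3 had 1097 and 301 CPM and Ifitm1 417 and 443 CPM, so these neighbours in function did not share a direction across classes.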

How the data were processed

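Single-cell RNA of whole mouse uterus was measured in 2 libraries with a droplet kit that counts transcripts from their 3-prime end. The authors deposited unfiltered UMI counts per gene and barcode, with no normalization. The file headers name Cell Ranger 4, and the submitters' processing notes name Cell Ranger 6.1.1 and mm10; which run made the files is not settled here.

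A barcode counted as a cell from 1000 UMIs and 500 genes upward with a mitochondrial share of 20% or less. The mitochondrial limit took out 283 (control) and 43 (cKO) barcodes. Joint clustering of all cells used scanpy 1.11.5 (2000 variable genes, 30 components, 15 neighbours, Leiden resolution 1, no batch correction), with 158 member and pathway genes kept out of the variable genes. Clusters were named from at least 3 marker genes. Scrublet marked 4 of 7076 cells, so it did not work and doublets must be assumed to remain.

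UMIs of each class were added up within a library, scaled to CPM, and compared as log2 ratios after adding 5 CPM. Counts have exact Poisson intervals, shares Clopper-Pearson intervals and ratios exact conditional intervals (95%, scipy 1.17.1); they cover counting error only. For comparisons per cell, each cell was thinned to 1000 UMIs. The scripts were tested on simulated data. Full values were given for the 3 members with the most UMIs in a class, those with the lowest and highest log2 ratio at a mean of 10 CPM or more, those going against the class's median, and further members for each role chosen after their values were seen. Prickle1 was always given. The members, gene lists and pathway genes were chosen with earlier results of these data known. Promoter windows came from RefSeq (GRCm38.p6) and gene positions from GENCODE vM21. The alternatives changed the pseudocount, scaling, depth, free RNA, clustering, cell filters, doublet scores and the cells or clusters included.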

Additional observations from a re-analysis of the deposited data

How the results depend on the processing

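The count of lower members was recomputed under 124 combinations of cell group and alternative, with the number of classes richer in cells with 5 or more members, and 117 stayed within 1.5 times of the reported value. The other 7 were in fibroblast-like cells (25) and smooth muscle-like cells (4). The fibroblast-like count was 12 as the mean of within-cluster ratios and 2 without the 5% of cells highest in members. The smooth muscle-like count was 16 with a pseudocount of 1 CPM, 2 with 10 CPM, 2 as the mean of each cell's own CPM, 7 with member genes kept among the variable genes and 15 at 2000 or more UMIs per cell; the cause was not tested.

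Over the alternatives run, the count ranged from 29 to 36 in epithelium-like cells, 22 to 33 in macrophage or monocyte-like cells, 35 to 36 in dendritic cell-like cells, 21 to 31 in T or NK cell-like cells and 27 to 36 in cluster 11. The 29 in epithelium-like cells came without clusters drawn over 90% from 1 library. The summed fold stayed between 4.72 and 10.2 in epithelium-like cells and between 1.97 and 4.66 in fibroblast-like cells. Of 362 values of named members at a log2 ratio of 1 or more in size, 9 came out below 1 and 0 reversed. Cluster 11 has no value where cells were clustered anew, and subtraction of free RNA was not run for all cells or per cell.

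No paired analysis was possible because each group has 1 library. In smooth muscle-like cells 7 of 37 members reached 10 CPM, so most ratios there rest on few UMIs. The library labelled cKO had 110 epithelium-like cells, so a count of 0 allows up to 2.73% of cells with a UMI there.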

Other observations

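Of 16 genes biased to interferon gamma, part were lower in each group. At a mean of 10 CPM or more these were 12 of 14 in macrophage or monocyte-like cells (2.04% of all genes), 10 of 14 in dendritic cell-like cells (3.46%), 5 of 9 in epithelium-like cells (7.31%), 7 of 12 in cluster 11 (2.7%), 3 of 6 in fibroblast-like cells (0.704%) and 1 of 6 in smooth muscle-like cells (1.55%). T or NK cell-like cells had 7 of 13 (3.49%). Ifng itself was at 18.0 and 22.4 CPM in cluster 11, in 7.19% of 139 and 7.89% of 304 cells. Cxcl10, a chemokine that draws T cells, had 1656 and 278 CPM in macrophage or monocyte-like cells, 812 and 4.19 CPM in dendritic cell-like cells, 314 and 25.9 CPM in epithelium-like cells and 266 and 30.1 CPM in fibroblast-like cells. Its relative Cxcl9 had 186 UMIs in dendritic cell-like cells of the library labelled control and 0 in those of the library labelled cKO. Gbp2, a guanylate-binding protein gene, had 673 and 72.2 CPM in dendritic cell-like cells but 81.3 and 65.2 CPM in epithelium-like cells.

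NF-kB response genes, which cytokine and damage signals induce, are given for macrophage or monocyte-like, fibroblast-like and epithelium-like cells only. In macrophage or monocyte-like cells 0 of 14 were lower and 3 were higher (1.09% of all genes were higher), with Tnf at 201 and 656 CPM and Il6 at 70.2 and 177 CPM. In fibroblast-like cells Il6, an inflammatory cytokine, had 176 and 449 CPM, and the counts of lower and higher genes are not given here. In epithelium-like cells 3 of 12 were lower (7.31% of all genes), and Tnfaip3, an inhibitor of the same pathway, had 259 and 21.5 CPM. The number that were higher there is not given here.

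Smaller cell groups had the same direction of the summed member level on few cells. B cell-like cells had 36.0 and 6.68 member UMIs per 10000 (25 and 29 cells), lymphatic endothelium-like cells 19.9 and 5.33 (22 and 75), mast cell-like cells 17.0 and 5.07 (42 and 53), mesothelium-like cells 11.2 and 6.66 (83 and 31), and granulocyte-like cells 83.5 and 29.5 (6 and 31).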
